A study of Homo sapiens with 6 samples.

Results

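The ERK feedback genes examined here are 10 transcripts that restrain or report the RAS-ERK pathway: the MAP kinase phosphatases DUSP1, DUSP4, DUSP5 and DUSP6, the Sprouty genes SPRY1, SPRY2 and SPRY4, the Sprouty-related genes SPRED1 and SPRED2, and the ETS transcription factor ETV5. They were taken by name from the 38170 features of the deposited table, each matched 1 entry, and all 10 were among the 19620 features with enough counts to be tested. The RNA came from A549, a line derived from a human lung adenocarcinoma. In 3 libraries the cells overexpressed the long non-coding RNA LOC401312 from the piggyBac transposon system, which inserts DNA into the genome. In the other 3 libraries they had received the empty vector. The promoter of the construct, whether the lines were single clones or pools, and whether libraries came from separate cultures are not stated in the labels, so the p-values cover the spread among 6 libraries that may be technical repeats.

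ERK, the last kinase of the RAS-RAF-MEK cascade, switches on several of its own inhibitors, so that signalling is limited by a negative feedback loop. DUSP proteins remove phosphate from ERK and related kinases, Sprouty and SPRED proteins act upstream of it at the level of receptors, RAS and RAF, and ETV5 is a transcription factor whose expression follows ERK activity. Transcripts of this kind are widely used as readouts of ERK output.

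Library totals were 65823845 to 70202062 counts in LOC401312 and 60971105 to 73994619 counts in vector. The STEAP1B entry, whose span holds LOC401312, had 94628, 92527 and 90297 counts in the LOC401312 libraries, against 9, 11 and 23 counts in the vector libraries. For LOC401312 replicates 2 and 3 the genotype field and the title disagree on the locus, and the title was used. Levels are given as CPM, counts scaled to a common library size, unless FPKM, which also corrects for transcript length, is named. Keratins 8 and 18 were abundant in all 6 libraries, while the alveolar markers NKX2-1, SFTPB and SFTPC were at or below 0.375 CPM in each. The alveolar marker NAPSA was at 2.01 to 2.37 CPM in LOC401312 and 0.970 to 1.15 CPM in vector (log2 change 1.02, adjusted p = 0.0183), and the epithelial markers CDH1 (0.48, adjusted p = 0.000131) and KRT19 (0.26, adjusted p = 0.0077) were also higher. The other epithelial markers, KRT8 (0.03, adjusted p = 0.792), KRT18 (0.03, 0.683) and EPCAM (0.15, 0.777), did not pass. The epithelial list summed to 8292 to 8798 CPM in LOC401312 and 7988 to 8665 CPM in vector. The summed level of 8 genes listed as squamous or urothelial markers was 1.96 to 2.98 CPM in LOC401312 and 9.02 to 9.94 CPM in vector. Among these, UPK1B (log2 change -0.10, adjusted p = 0.876), UPK2 (-0.17, 0.86) and KRT5 (-2.97, 0.114) did not pass. UPK3A and KRT14 had too few counts to be tested. KRT13 had 5, 0 and 0 counts in LOC401312, against 338, 253 and 286 counts in vector. ADIRF (-4.67, adjusted p = 0.00377) was also lower in LOC401312. CDKN2A, a gene of the list that is not specific to these cell types, was lower as well (-7.77, adjusted p = 0.00717). It had 0 counts in every LOC401312 library, against 47, 18 and 17 counts in vector replicates 1 to 3. The difference in the summed level moves with every comparison of the groups given here, and its part in the DUSP5 and SPRED2 results was not tested. Some libraries stood apart by transcripts of other tissues. The summed level of 8 placental markers was 2.23, 98.4 and 90.7 CPM in LOC401312 replicates 1, 2 and 3, against 1.64 to 2.44 CPM in vector. Vector replicate 1 held 27.2 CPM of 3 haemoglobin transcripts, a list chosen after its values were seen, against 0.308 to 0.879 CPM in LOC401312 and 1.10 and 0.0976 CPM in vector replicates 2 and 3. Of 4 leukocyte markers, PTPRC, CD3E and LYZ were at 3.45, 0.741 and 1.82 CPM in vector replicate 1 and at most 0.191 CPM in every other library, whereas CD14 was at 10.7 to 13.5 CPM throughout; the summed level of the list was 11.6 to 13.5 CPM in LOC401312 and 10.7 to 17.5 CPM in vector.

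Most of the family did not pass the test, and the members that passed were lower. At an adjusted p of 0.05, DUSP5 and SPRED2 were lower in LOC401312, 2 of 10, no member was higher, and 8 did not pass. Of all features tested, 8.72% passed, 4.58% as lower and 4.13% as higher. By edgeR no member was higher at an unadjusted p under 0.05 either, and 3 were lower, beside 11.2% of features higher and 11.4% lower. DESeq2 called 0 members higher and 2 lower, beside 7.04% and 6.87% of features. The members' median log2 change (LOC401312 over vector) was -0.03, with 5 positive and 5 negative, beside a median of -0.001 over all features tested. The members' log2 changes lay between -0.33 and 0.08. The exact two-sided permutation test of 3 libraries against 3 cannot go below p = 0.1, so calls are taken from the fit across all genes. Without LOC401312 replicates 2 and 3, which carry the placental transcripts, no member passed in edgeR, and over all features 0.383% were higher and 0.415% lower.

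**Figure D1:**
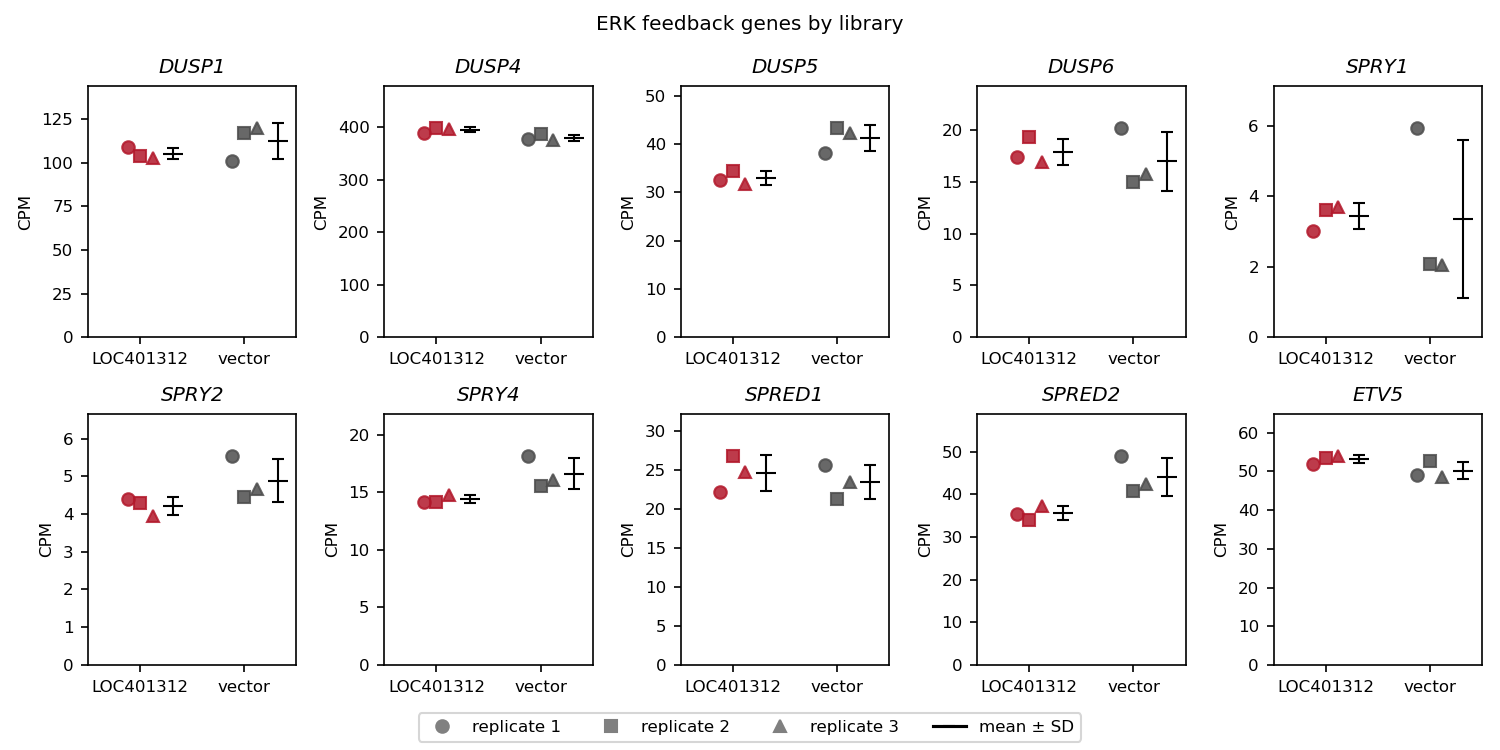
CPM of each ERK feedback gene (y axes, from 0) in the 3 LOC401312 and 3 vector libraries (x axes), with the mean and SD of each group as bars. DUSP5 and SPRED2 were lower in every LOC401312 library than in any vector library, and SPRY1 was far higher in vector replicate 1, at 5.94 CPM, than in the other vector libraries.

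Promoter windows from RefSeq (GRCh38.p14, 250 bases before to 50 after the start) had an entry for 7 members, not all of which were used. Where the unused entry began is not stated here. The windows used were those of DUSP1, DUSP6, SPRY1, SPRY2, SPRED1 and SPRED2. For these 6 members an entry began at the start of the gene in the deposited table. Each window was searched on both strands for letters bound by factors that act downstream of ERK and its neighbours: the CRE half-site TGACG, the ETS site CCGGAA and the AP-1 site TGANTCA. The shorter ETS core GGAA was not searched for. Among all 35116 promoter windows, 24.6% held the first, 17.2% the second and 7.71% the third. DUSP1 had 4 CRE half-sites, a pair of which overlap, SPRY2 had 1 CRE half-site and 1 ETS site, and SPRED2 had 1 CRE half-site, beginning 30 bases after its start. DUSP6, SPRY1 and SPRED1 had none of the 3 motifs in their windows, and no window held the AP-1 letters. The windows with matches are printed 5′ to 3′ in the direction of transcription with the matched letters in capitals, to set the called member SPRED2 beside members that were not called; they lie at chr5:172771146-172771445 (minus strand), chr13:80341077-80341376 (minus strand) and chr2:65432550-65432849 (minus strand).
DUSP1: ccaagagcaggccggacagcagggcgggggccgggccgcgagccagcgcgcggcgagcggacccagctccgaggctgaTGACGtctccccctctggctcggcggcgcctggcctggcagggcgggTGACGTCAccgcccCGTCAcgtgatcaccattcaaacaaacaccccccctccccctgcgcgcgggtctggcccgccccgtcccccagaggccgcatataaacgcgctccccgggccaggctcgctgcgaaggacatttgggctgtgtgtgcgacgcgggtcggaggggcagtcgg
SPRY2: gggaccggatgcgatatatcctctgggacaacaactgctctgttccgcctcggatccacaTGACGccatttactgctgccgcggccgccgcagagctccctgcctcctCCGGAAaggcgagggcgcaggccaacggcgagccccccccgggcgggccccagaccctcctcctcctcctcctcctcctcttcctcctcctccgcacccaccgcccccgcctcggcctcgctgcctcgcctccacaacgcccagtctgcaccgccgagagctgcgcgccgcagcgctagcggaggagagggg
SPRED2: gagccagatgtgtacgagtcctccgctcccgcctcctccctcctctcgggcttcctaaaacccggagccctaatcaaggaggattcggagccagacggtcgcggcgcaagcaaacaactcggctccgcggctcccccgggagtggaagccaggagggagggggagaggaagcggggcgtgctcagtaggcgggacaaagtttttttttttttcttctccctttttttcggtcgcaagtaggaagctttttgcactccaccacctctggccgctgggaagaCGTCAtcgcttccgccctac
The CRE half-site was thus found in SPRED2, a member that was called, and in members that were not. DUSP5, the other called member, had no window, so the windows cannot tell whether the motif goes with the call.

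DUSP5 (ENSG00000138166; GRCh38 chromosome 10, 110497907 to 110511533, plus strand), an inducible nuclear phosphatase selective for ERK, had the largest fall among the members. It was at 32.6, 34.5 and 31.7 CPM in LOC401312 replicates 1 to 3, against 38.2, 43.4 and 42.3 CPM in vector replicates 1 to 3. The groups did not overlap, and among vector libraries replicate 1 was the lowest. Its mean was 32.9 ± 1.41 CPM in LOC401312 and 41.3 ± 2.74 CPM in vector (SD, n = 3 each), a 0.797-fold level and a log2 change of -0.33 (SE 0.06, adjusted p = 0.0112). The change was -0.38 without vector replicate 1 (adjusted p = 0.00551), and -0.34 with the median of each chromosome removed (adjusted p = 0.0139). The call was lost without LOC401312 replicate 1 (adjusted p = 0.0542), LOC401312 replicate 3 (0.0615), vector replicate 2 (0.0526) or vector replicate 3 (0.0569), with log2 changes of -0.32 to -0.29. It was also lost without LOC401312 replicates 2 and 3 together (-0.34, adjusted p = 0.235). The pseudogene DUSP5P1, which could share reads with DUSP5, was at 0.147 to 0.848 CPM.

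DUSP1 (ENSG00000120129; chromosome 5, 172768096 to 172771195, minus strand) encodes an immediate early nuclear phosphatase that acts on p38 and JNK as well as on ERK. It was at 109, 104 and 103 CPM in LOC401312 and 101, 117 and 120.1 CPM in vector. Vector replicate 1 was the lowest of the 6 libraries and vector replicates 2 and 3 the highest, so that the groups overlapped. The log2 change was -0.10 (SE 0.06, adjusted p = 0.415; 95% interval -0.24 to 0.04). Without vector replicate 1 it was -0.17 and passed the threshold (adjusted p = 0.0393). In the deposited FPKM values DUSP1 had the opposite sign, 0.03 (limma adjusted p = 0.737). With FPKM library medians equalised, a setting added after the data were seen, it was at -0.08 (limma adjusted p = 0.514).

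DUSP4 (ENSG00000120875; chromosome 8, 29333064 to 29350684, minus strand), another inducible nuclear phosphatase, was the most abundant member in counts and the most even. It was at 389.7, 399 and 397 CPM in LOC401312, against 377, 387 and 375 CPM in vector. The groups did not overlap but lay close together, and the log2 change was 0.06 (SE 0.03, adjusted p = 0.37; interval -0.02 to 0.13). DUSP6 (ENSG00000139318; chromosome 12, 89347235 to 89352501, minus strand), the cytoplasmic phosphatase specific for ERK, was at 17.4, 19.3 and 16.9 CPM in LOC401312 and 20.2, 15.0 and 15.7 CPM in vector. Its LOC401312 values lay between vector replicate 1 and the other vector libraries. The log2 change of DUSP6 was 0.07 (SE 0.12, adjusted p = 0.787; interval -0.19 to 0.33), and 0.22 without vector replicate 1 (adjusted p = 0.18). Genes of chromosome 12 had a median log2 change of 0.117 (642 genes averaging 4 CPM or more), and with it removed DUSP6 was at -0.04 (adjusted p = 0.891).

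Among the Sprouty genes, whose products bind adaptors such as GRB2 and block the step from receptor to RAS, none passed the test with all libraries. SPRY1 (ENSG00000164056; chromosome 4, 123396795 to 123403755, plus strand) varied more than any other member. It had 212, 247 and 247 counts in LOC401312, against 441, 124 and 127 counts in vector, that is 3.01, 3.62 and 3.70 CPM in LOC401312 against 5.94, 2.07 and 2.06 CPM in vector. Vector replicate 1 was the highest of the 6 libraries and vector replicates 2 and 3 the lowest, with LOC401312 between them. The level of vector replicate 1 was 2.87-fold that of the other vector libraries (exact binomial 95% interval 2.45 to 3.36, which covers counting error only). Of 14500 features averaging 1 CPM or more, 0.759% were at least 2-fold higher in that library than in the mean of the other vector libraries. The coefficient of variation of SPRY1 was 11.0% in LOC401312 and 66.5% in vector. The log2 change was 0.03 (SE 0.37, adjusted p = 0.976; interval -0.79 to 0.85). Without vector replicate 1 it was 0.73 and did not pass (SE 0.20, adjusted p = 0.0519), and without vector replicate 2 or vector replicate 3 it was -0.22 (adjusted p = 0.825 and 0.826).

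The fibroblast markers DCN and LUM moved with SPRY1 across libraries. LUM was at 1.60, 2.30 and 2.52 CPM in LOC401312, against 4.67, 0.418 and 0.797 CPM in vector, and DCN at 1.06, 1.73 and 1.36 CPM in LOC401312, against 2.76, 0.519 and 0.959 CPM in vector. For both, as for SPRY1, vector replicate 1 was the highest library and vector replicates 2 and 3 the lowest. The other 2 of the 4 fibroblast markers, COL1A1 and COL1A2, differed instead between the groups. The list summed to 20.5 to 21.8 CPM in LOC401312 and 36.0 to 47.8 CPM in vector, and no member of it was at 0. The part of other cells' RNA in the SPRY1 values was not tested, and in bulk RNA more cells of a type and more RNA per cell cannot be told apart.

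SPRY2 (ENSG00000136158; chromosome 13, 80335976 to 80341126, minus strand) was at 4.41, 4.29 and 3.95 CPM in LOC401312 and 5.55, 4.45 and 4.67 CPM in vector. SPRY4 (ENSG00000187678; chromosome 5, 142310427 to 142326455, minus strand) was at 14.2, 14.2 and 14.8 CPM in LOC401312 and 18.2, 15.6 and 16.1 CPM in vector. For both genes every LOC401312 library was below every vector library, and vector replicate 1 was the highest of all. SPRY2 had a log2 change of -0.21 (SE 0.14, adjusted p = 0.444; interval -0.53 to 0.11) and SPRY4 of -0.21 (SE 0.09, adjusted p = 0.184; interval -0.40 to -0.02 before adjustment over all features). Without vector replicate 1 the log2 changes were -0.11 (adjusted p = 0.736) for SPRY2 and -0.14 (0.362) for SPRY4. The opposite-strand entry SPRY4-AS1, whose reads could not be told apart from those of SPRY4 if strand was not used, was at 0.406 to 0.907 CPM.

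The SPRED proteins sit at the membrane and bring the RAS inhibitor neurofibromin, the product of NF1, to RAS. SPRED2 (ENSG00000198369; chromosome 2, 65310851 to 65432599, minus strand) was at 35.5, 34.0 and 37.3 CPM in LOC401312, against 49.1, 40.7 and 42.5 CPM in vector. The groups did not overlap, and vector replicate 1 was the highest. Its mean was 35.6 ± 1.65 CPM in LOC401312 and 44.1 ± 4.44 CPM in vector (SD, n = 3 each), a 0.807-fold level and a log2 change of -0.31 (SE 0.07, adjusted p = 0.0297). SPRED2 lies on chromosome 2, where 90.1% of 780 genes averaging 4 CPM or more had a negative log2 change and the median was -0.233. With the chromosome medians removed, SPRED2 was at -0.08 (SE 0.07, adjusted p = 0.593), and its call was lost; in that fit DUSP5 was the 1 member called lower, beside 2.62% of features lower and 3.48% higher. The SPRED2 call was also lost without vector replicate 1 (-0.22, adjusted p = 0.0524), vector replicate 3 (-0.34, 0.0671) or LOC401312 replicates 1 (-0.31, 0.0996), 2 (-0.28, 0.127) or 3 (-0.34, 0.0625).

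SPRED1 (ENSG00000166068; chromosome 15, 38252836 to 38357249, plus strand) was at 22.2, 26.8 and 24.7 CPM in LOC401312 and 25.6, 21.2 and 23.4 CPM in vector, with overlapping groups. Its log2 change was 0.07 (SE 0.09, adjusted p = 0.738; interval -0.14 to 0.28). ETV5 (ENSG00000244405; chromosome 3, 186046314 to 186110318, minus strand), an ETS factor of the PEA3 subfamily, was at 52.0, 53.4 and 54.1 CPM in LOC401312 and 49.2, 52.7 and 48.6 CPM in vector. Vector replicate 2 lay within the LOC401312 range, and the log2 change of ETV5 was 0.08 (SE 0.05, adjusted p = 0.358; interval -0.02 to 0.19). DGKG, an entry that overlaps ETV5 on the same strand, was at 14.5 to 16.8 CPM.

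**Figure D2:**
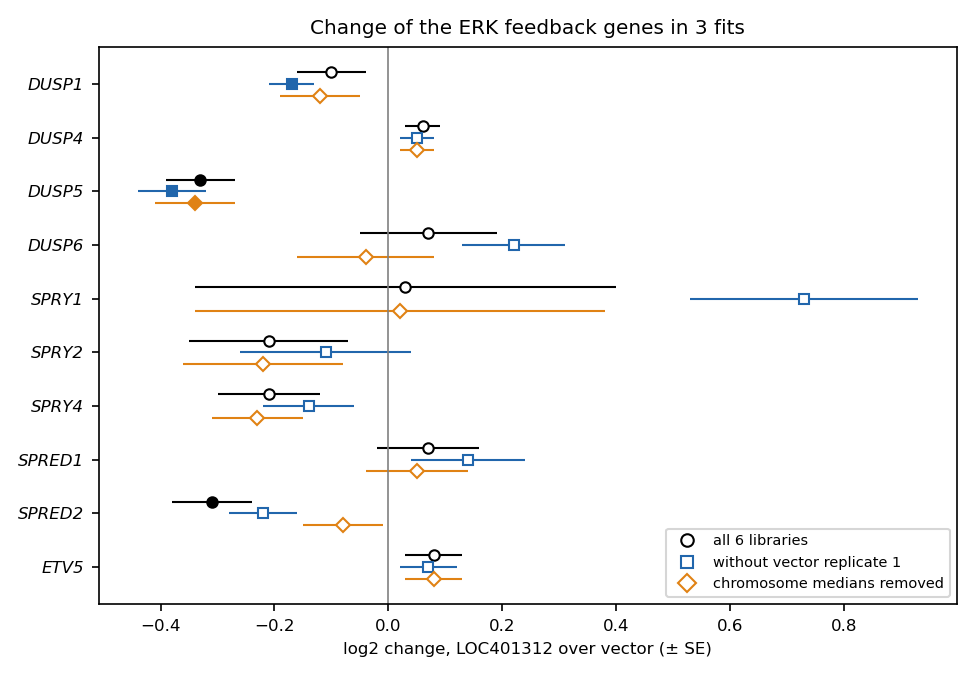
Log2 change of each member (x axis, LOC401312 over vector, bars ± SE) with all 6 libraries, without vector replicate 1, and with the median of each chromosome removed; filled symbols passed an adjusted p of 0.05. DUSP5 passed in all 3 fits, SPRED2 moved from -0.31 to -0.08 when the chromosome median was removed, and SPRY1 from 0.03 to 0.73 when vector replicate 1 was left out.

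In all, 5 members had groups that did not overlap, DUSP4 higher in LOC401312 and DUSP5, SPRY2, SPRY4 and SPRED2 lower. Over all features tested, 27.9% did not overlap, 14% as higher and 13.9% as lower. Vector replicate 1 was the highest vector library for 6 of 10 members, namely DUSP6, all 3 Sprouty genes and both SPRED genes, against 35.5% of all features tested. For SPRY1, SPRY2, SPRY4, SPRED2 and DUSP6 it was the highest of all 6 libraries, which held for 17.7% of features. Beside SPRY1, its level was 1.32-fold that of the other vector libraries for DUSP6, 1.22-fold for SPRY2, 1.18-fold for SPRED2 and 1.15-fold for SPRY4 and SPRED1. It was the lowest vector library for DUSP1, at 0.852-fold, and DUSP5, at 0.891-fold, as it was for 35.8% of features. Without that library, DUSP1 and DUSP5 passed as lower and no member as higher, beside 5.13% lower and 4.74% higher over all features tested. The part of the haemoglobin and leukocyte transcripts of that library in these values was not tested.

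**Figure D3:**
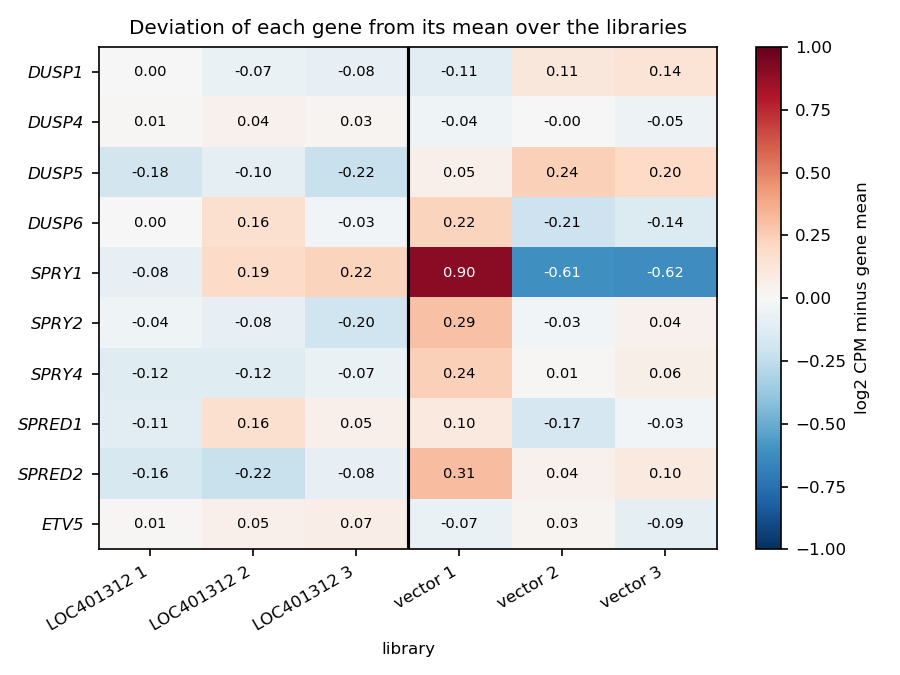
Log2 CPM of each member (rows) in each library (columns) minus the gene's mean over the 6 libraries; red is above and blue below the mean. SPRY1 reached 0.90 in vector replicate 1 and was at -0.61 and -0.62 in vector replicates 2 and 3, while DUSP4 and ETV5 stayed within 0.09 of their means.

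Among the 10 members, levels per transcript length, in the deposited FPKM values, separated the phosphatases from the Sprouty genes. Outside the members this did not hold for every MAP kinase phosphatase. DUSP9 averaged 0.767 FPKM in LOC401312 and 0.420 FPKM in vector, and DUSP16 11.4 and 9.16 FPKM. DUSP4 averaged 47.5 ± 0.236 FPKM in LOC401312 and 41.9 ± 1.54 FPKM in vector, and DUSP1 45.8 ± 2.09 and 44.8 ± 2.38 FPKM (SD, n = 3 each), and the ranges of this pair overlapped in both groups. DUSP5 followed at 11.4 ± 0.488 FPKM in LOC401312 and 13.0 ± 0.395 FPKM in vector, then ETV5 at 8.05 ± 0.0624 and 6.96 ± 0.329 FPKM and SPRED2 at 5.66 ± 0.258 and 6.44 ± 0.918 FPKM. DUSP6 was at 4.04 ± 0.274 FPKM in LOC401312 and 3.54 ± 0.739 FPKM in vector and SPRED1 at 2.78 ± 0.23 and 2.43 ± 0.314 FPKM. SPRY4 averaged 1.92 and 2.04 FPKM, SPRY2 1.15 and 1.22 FPKM, and SPRY1 0.757 and 0.687 FPKM, in LOC401312 and vector in each case. Below DUSP1 and DUSP4 the order was the same in both groups. In LOC401312 no other neighbours overlapped, whereas in vector the ranges of ETV5 and SPRED2, SPRED1 and SPRY4, and SPRY2 and SPRY1 did. The FPKM values as a whole were shifted upwards in LOC401312, with a median log2 change of 0.109 over features averaging 5 FPKM or more. With limma on log2(FPKM + 0.1), DUSP4 (0.18, adjusted p = 0.0282) and ETV5 (0.21, adjusted p = 0.0467) counted as higher and DUSP5 (-0.20, adjusted p = 0.045) as lower, beside 8.35% of features higher and 1.57% lower. Once library medians were equalised, a setting added after the data were seen, no member was higher and 1, DUSP5, was lower, beside 3.04% of features higher and 3.26% lower.

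The rest of the pathway, in 5 lists chosen with earlier results of these data known, is read against the 4.13% of all features that were higher and the 4.58% that were lower. At an unadjusted p under 0.05 the shares were 11.2% higher and 11.4% lower. By DESeq2 they were 7.04% and 6.87%. Of 18 genes of the cascade from adaptors to ERK, 2 rose, none fell by edgeR or DESeq2 and 16 did not pass. At an unadjusted p under 0.05, 4 were higher and 0 lower, and the median log2 change was 0.01. Among those that did not pass, the MEK gene MAP2K1 had a log2 change of -0.03 (adjusted p = 0.793) and the ERK gene MAPK3 of 0.11 (adjusted p = 0.359). SHC1, an adaptor that links receptors to GRB2, was at 406 ± 11.0 CPM in LOC401312 and 363 ± 4.54 CPM in vector, a log2 change of 0.16 (SE 0.04, adjusted p = 0.0213). FRS2, the adaptor of fibroblast growth factor receptors, was at 27.7 ± 0.987 CPM in LOC401312 and 22.3 ± 1.33 CPM in vector, a change of 0.32 (SE 0.07, adjusted p = 0.0217). FRS2 is a chromosome 12 gene, and removing chromosome medians left 0.20 (adjusted p = 0.135). SHC1 lost its call without any of the LOC401312 libraries or vector replicate 3 (adjusted p up to 0.0919), and FRS2 in 5 of 6 such fits, the exception being that without vector replicate 1 (up to 0.0888). The log2 changes in these 6 fits were 0.14 to 0.18 for SHC1 and 0.29 to 0.37 for FRS2. Neither passed without LOC401312 replicates 2 and 3 (adjusted p = 0.349 for SHC1 and 0.395 for FRS2).

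Of 15 other ERK-responsive transcripts, 1 fell, none rose and 14 did not pass in edgeR, with a median of -0.09, beside 4.58% of features lower and 4.13% higher. At an unadjusted p under 0.05, 4 of the list were lower and 2 higher, beside 11.4% and 11.2% of features. DESeq2 called 1 lower and 1 higher, beside 6.87% and 7.04% of features. With limma on log2(FPKM + 0.1), 0 were lower and 2 higher, beside 1.57% and 8.35%. The gene that fell was ETV4, which belongs to the same PEA3 subfamily as ETV5. It was at 41.1, 41.3 and 41.2 CPM in LOC401312, against 50.4, 50.8 and 50.5 CPM in vector. Its log2 change was -0.30 (SE 0.04, adjusted p = 0.00289), and it passed on leaving out any 1 library (adjusted p up to 0.0212), though not without LOC401312 replicates 2 and 3 together (-0.30, adjusted p = 0.175) or with limma on FPKM (-0.17, adjusted p = 0.0556). With FPKM library medians equalised ETV4 passed (-0.27, adjusted p = 0.00556). The third PEA3 factor, ETV1, had a log2 change of 0.29 (adjusted p = 0.0811), so the subfamily had values of both signs. Among the other ERK readouts of the list, PHLDA1 (0.13, adjusted p = 0.122), CCND1 (0.03, 0.779) and EPHA2 (-0.01, 0.967) did not pass. Nor did FOSL1 (-0.20, adjusted p = 0.103), HBEGF (-0.35, 0.322) and MYC (-0.11, 0.215). Of all 15 genes, 5 had a positive log2 change and 10 a negative one. EGR1, an immediate early factor, was at 1.23, 1.45 and 1.15 CPM in LOC401312 and 3.57, 2.58 and 1.14 CPM in vector, and did not pass (-0.93, SE 0.36, adjusted p = 0.159).

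Of the 6 other MAP kinase phosphatases, 1 rose, none fell by edgeR or DESeq2 and 5 did not pass, with a median of 0.23, beside 4.13% of features higher and 4.58% lower. At an unadjusted p under 0.05, 3 were higher and 0 lower. DUSP16, which acts mainly on JNK and p38, was at 92.6 ± 4.60 CPM in LOC401312 and 81.5 ± 1.91 CPM in vector, a log2 change of 0.18 (SE 0.05, adjusted p = 0.0425). It too is a chromosome 12 gene, at 0.07 (adjusted p = 0.482) once chromosome medians were removed. DUSP16 passed in none of the 6 fits that left out a library (adjusted p up to 0.192), with log2 changes of 0.15 to 0.22. DUSP7, a cytoplasmic relative of DUSP6, had a log2 change of 0.33 (adjusted p = 0.0667) and DUSP9, another, of 0.74 (adjusted p = 0.0836). None of 10 tested atypical dual-specificity phosphatases, which lack the kinase-binding domain, passed at an adjusted p of 0.05 by edgeR. At an unadjusted p under 0.05, 2 were lower and 0 higher, beside 11.4% and 11.2% of features. DESeq2 called 0 in either direction, beside 6.87% of features lower and 7.04% higher. The smallest p-values there were those of DUSP19 (-0.61, adjusted p = 0.0885) and DUSP11 (-0.19, adjusted p = 0.117), both on chromosome 2; with chromosome medians removed DUSP19 was at -0.38 (adjusted p = 0.318) and DUSP11 at 0.04 (adjusted p = 0.833).

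Of 12 other brakes on receptor and RAS signalling, 3 rose, none fell by edgeR or DESeq2 and 9 did not pass, with a median of 0.11, beside 4.13% of features higher and 4.58% lower. At an unadjusted p under 0.05, 5 were higher and 1 lower, beside 11.2% and 11.4% of features. PEBP1, a RAF kinase inhibitor, was at 206, 204 and 202 CPM in LOC401312, against 175, 179 and 174 CPM in vector, a log2 change of 0.22 (SE 0.04, adjusted p = 0.00547). It passed on leaving out any 1 library (adjusted p up to 0.0373). PEBP1 is on chromosome 12 as well, and was at 0.10 (adjusted p = 0.14) after removal of chromosome medians. RASAL2, a RAS GTPase-activating protein, had a log2 change of 0.28 (SE 0.07, adjusted p = 0.0286). SPRY3, the Sprouty gene of the X and Y chromosomes' shared end, whose copies could not be counted apart, was at 5.67 ± 0.780 CPM in LOC401312 and 3.73 ± 0.378 CPM in vector (SD, n = 3 each). Its log2 change was 0.60 (SE 0.15, adjusted p = 0.0382), whereas none of SPRY1, SPRY2 and SPRY4 passed; the difference between SPRY3 and these was not tested. RASAL2 and SPRY3 each passed in 1 of 6 fits that left out a library, that without vector replicate 1 (adjusted p elsewhere up to 0.118 for RASAL2 and 0.168 for SPRY3), with log2 changes of 0.25 to 0.33 for RASAL2 and 0.49 to 0.69 for SPRY3. With limma on log2(FPKM + 0.1) PEBP1 passed (0.34, adjusted p = 0.00473), but RASAL2 (0.38, 0.0736) and SPRY3 (0.57, 0.0776) did not. The same held with FPKM library medians equalised (limma adjusted p = 0.00556 for PEBP1 and 0.156 for RASAL2 and SPRY3). Without LOC401312 replicates 2 and 3 none of the 3 passed (PEBP1 at 0.23, adjusted p = 0.18). NF1, the partner of the SPRED proteins, had a log2 change of 0.17 (adjusted p = 0.129).

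**Figure D4:**
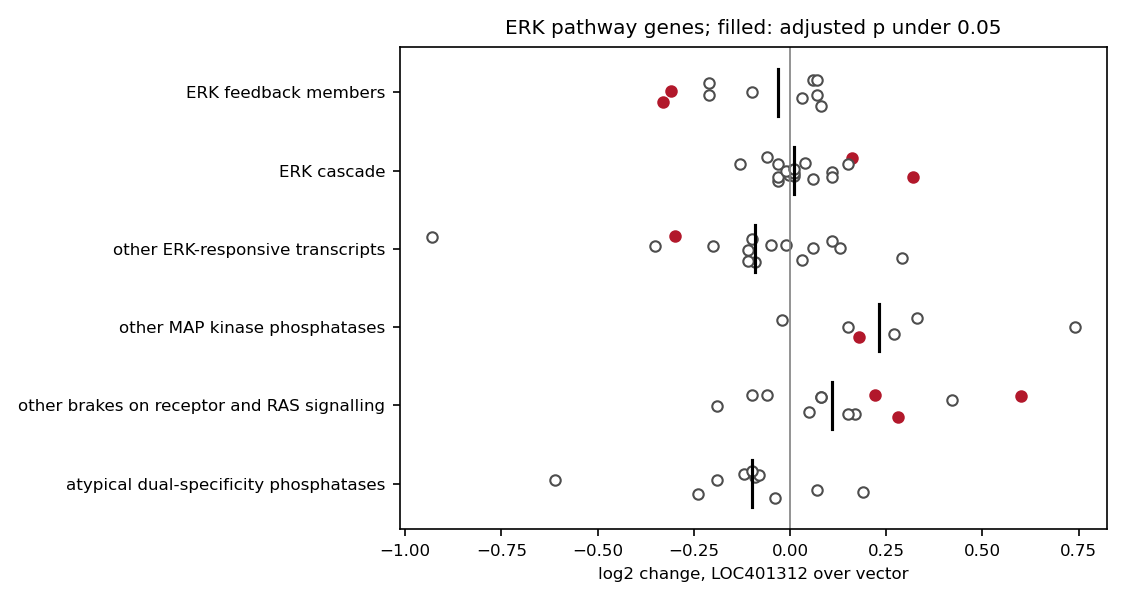
Log2 change (x axis, LOC401312 over vector) of each tested gene of the ERK feedback set and of 5 further lists (rows); red points passed an adjusted p of 0.05 and black bars are list medians. The called genes were 2 lower among the feedback genes, ETV4 lower, and 6 higher among the cascade, other phosphatase and other brake lists.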

How the data were processed

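RNA of 3 LOC401312 and 3 empty vector libraries of A549 cells was compared, with groups taken from the titles. The deposited table gives unnormalized whole-number counts for every library, and FPKM values that the authors had scaled by transcript length and depth, per the file headers. The submitters' processing notes name cutadapt 1.9, FastQC and the build GRCh38 (hg38). The aligner, the counting tool, the annotation and the use of strand were not given in the sources used here.

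Counts were tested with edgeR 4.0.16 (R 4.3.3): TMM scaling, filterByExpr, quasi-likelihood test on group alone, Benjamini-Hochberg adjustment over all 19620 features tested, threshold 0.05. Adjusted p-values are from this fit unless another tool is named. Standard errors were derived from each log2 change and its F statistic, and 95% intervals use the fit's degrees of freedom. Alternatives used DESeq2 1.42.0, limma 3.58.1 with pseudocounts of 0.1 and 1, other scalings and filters, a replicate block, chromosome medians (from genes averaging 4 CPM or more) and left-out libraries.

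The members and lists were chosen with earlier results of these data known. Every member is named, and each list gives its 3 most significant called genes at most, or its 2 lowest p-values if it has no called gene. MAP2K1, MAPK3, ETV1, PHLDA1, CCND1, EPHA2, FOSL1, HBEGF, MYC, EGR1, DUSP7, DUSP9 and NF1 were named after their values were seen. Some genes of the lists are not reported here.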

Additional observations from a re-analysis of the deposited data

How the results depend on the processing

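The count of features past the threshold, 1710 here, was 832 to 2005 on leaving out each library in turn, 1088 with the replicate number as a block, 738 at an adjusted p of 0.01, 175 without LOC401312 replicates 2 and 3, and 788 when vector replicate 1 was left out as well, a setting added after the data were seen. The lone LOC401312 library in those fits is assumed to vary like the vector libraries. Same-numbered libraries did not deviate together (correlations of -0.074, -0.005 and -0.03), so the numbers were not taken to pair them; with the block DUSP5 and SPRED2 stayed called lower, DUSP5 at an adjusted p of 0.0297 and SPRED2 at 0.0491, and 1 gene of the pathway lists was higher. Members called lower, 2 here, were 0 to 2 on leaving out 1 library, 1 with total-count scaling, with no filter on low counts, with chromosome medians removed, with limma on FPKM at pseudocounts of 0.1 or 1 or with medians equalised, and without LOC401312 replicates 2 and 3 and vector replicate 1; they were 0 without LOC401312 replicates 2 and 3 and at an adjusted p of 0.01. Members called higher, 0 here, were 0 on leaving out any 1 library and 2 with limma on FPKM at either pseudocount. Genes of the pathway lists called higher, 6 here, were 1 to 7 on leaving out 1 library, 2 with chromosome medians removed, 2 with medians of FPKM equalised, 2 without LOC401312 replicates 2 and 3 and vector replicate 1, 1 at an adjusted p of 0.01 and 0 without LOC401312 replicates 2 and 3. Those called lower, 1 here, were 1 to 2 on leaving out 1 library, and 0 without LOC401312 replicates 2 and 3, with or without vector replicate 1, and with limma on FPKM at either pseudocount.

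Over the settings tried, 0.383% to 8.35% of features were called higher and 0.415% to 6.87% lower. Signs of genes that did not pass turned in some settings. DUSP1 was at 0.03 with limma on FPKM at either pseudocount, and at -0.08 with FPKM library medians equalised. DUSP6 was at -0.04 with chromosome medians removed and ranged from -0.01 (without vector replicate 2) to 0.22 on leaving out 1 library. SPRY1 was at -0.01 and -0.03 without LOC401312 replicate 2 or 3, -0.22 without vector replicate 2 or 3, 0.73 without vector replicate 1 and -0.16 without LOC401312 replicates 2 and 3. SPRED1 was at -0.08 without LOC401312 replicates 2 and 3, and 0.0028 to 0.14 on leaving out 1 library; it was at -0.005 when vector replicate 1 was left out as well. DUSP11 was at 0.04 with chromosome medians removed. The cause of these changes was not tested. SPRY1 had 124 to 441 counts per library, and DUSP4 23086 to 27968.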
